A study of Drosophila melanogaster with 2 samples.

Results

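Of the 7689 peaks bound by Meics-GFP in Drosophila melanogaster embryos, 883 (11.5%, Wilson 95% interval 10.8 to 12.2) lay at divergent promoters. A divergent promoter is a stretch from which 2 protein-coding genes are transcribed away from each other. A peak was counted when its summit was within 500 bp of the nearest protein-coding transcription start and another protein-coding gene on the opposite strand started within 500 bp upstream of that start. Starts of all transcripts in the Ensembl annotation of the BDGP6 assembly were used. A further 2424 peaks lay within 500 bp of a coding start without such a partner and are called single-direction promoter peaks here.

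The data come from ChIP-seq, which sequences the DNA that precipitates with a protein, in whole embryos aged 0 to 24 hours, pooled over males and females. The fly line stably expressed Meics, a zinc-finger protein named after the meiotic central spindle, with GFP fused to its C-terminal end, and the immunoprecipitation used an antibody against GFP. Per the labels the insertion targets Meics, and the promoter that drives the tagged gene is not given in the sources used here. The single group had 2 biological replicates from 1 donor line, which carry the numbers 1 and 3. No other genotype, treatment or stage and no control library was analysed here, and which embryonic cells carried the bound chromatin cannot be told from whole embryos.

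The 7689 peaks are those that passed the authors' threshold on the irreproducible discovery rate (IDR), which measures how well ranks repeat between replicates. Each replicate also has its own list of 30000 regions, and its 7689 strongest regions served to repeat each result. Signal is the authors' enrichment value per region on a scale that the sources used here do not give, so it is compared only within a list. The read depth is unknown. Intervals reflect counting error alone, and peaks that lie close together depend on each other. With 2 replicates the smallest two-sided p of an exact sign-flip test is 0.5, so differences are given with intervals and with both replicates, and without a p.

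Drosophila genes are tightly packed, and many housekeeping genes sit head to head, sharing one nucleosome-poor stretch between their starts. Such promoters commonly carry the DRE, an element read by DREF and by the boundary factor BEAF-32, and motif 1, which is read by M1BP. Regulated developmental genes more often have single promoters with a TATA box, an initiator or GAGA repeats.

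The DNA under the strongest member peaks is printed here to show what the summits rest on. The sequence is that of the RefSeq copy of the dm6 assembly, 5′ to 3′ on the plus strand, and positions are counted from 1. Of the 5 strongest member peaks, 4 had the word GTGACGAA or GTAACGAA within 100 bp of the summit on one strand or the other. The 3 windows below, each 61 bases centred on the summit, lie between the starts of CG12321 and MED17, CG15525 and CG11504, and Pfdn2 and Noc1. Capitals mark the word on either strand.
CG12321 and MED17, chr3R:18188964-18189024: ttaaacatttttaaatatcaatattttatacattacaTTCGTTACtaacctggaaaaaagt
CG15525 and CG11504, chr3R:29997823-29997883: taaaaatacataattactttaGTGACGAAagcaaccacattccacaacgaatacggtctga
Pfdn2 and Noc1, chr3L:11074681-11074741: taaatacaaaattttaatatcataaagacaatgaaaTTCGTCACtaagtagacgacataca

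The middle of the word was 11 bp from the summit at MED17, -5 bp at CG11504 and 10 bp at Noc1, and -30 bp at SMC2, whose window is not printed, where negative means to the left on the plus strand. Among the other 878 member peaks, 13 (1.48%, interval 0.867 to 2.52) had the word within 100 bp, against 83 of 2424 single-direction promoter peaks (3.42%, 2.77 to 4.22) and 23 windows at the midpoints of all 1972 divergent pairs (1.17%, 0.778 to 1.74). The strongest peaks are left out on the member side alone. Within 50 bp and with none left out, the word was at 1.47% of members and 2.23% of single-direction promoter peaks. That difference was -0.756 percentage points (interval -1.66 to 0.397). The word was first noticed in the strongest of these same peaks, so its presence there is a description. Beyond the 5 strongest, the next members with it were Sf3b6, which encodes a splicing factor, at rank 1142 of the IDR list and sei, a potassium channel gene, at rank 1427.

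Most strong member peaks had no such word. The whole stretches between the starts of 3 such pairs follow, chosen as strong members with the summit between the starts and no annotated exon in the stretch. Capitals mark CGATA, the short BEAF-32 site, and TATAAA, both on either strand.
Art3 and mRpS10, chr3R:15229409-15229664: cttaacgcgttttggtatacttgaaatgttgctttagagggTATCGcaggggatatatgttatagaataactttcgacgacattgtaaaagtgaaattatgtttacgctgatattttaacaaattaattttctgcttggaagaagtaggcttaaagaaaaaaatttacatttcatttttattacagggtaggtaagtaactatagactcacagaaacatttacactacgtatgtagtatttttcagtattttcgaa
CG13390 and CG17294, chr2L:8376798-8377034: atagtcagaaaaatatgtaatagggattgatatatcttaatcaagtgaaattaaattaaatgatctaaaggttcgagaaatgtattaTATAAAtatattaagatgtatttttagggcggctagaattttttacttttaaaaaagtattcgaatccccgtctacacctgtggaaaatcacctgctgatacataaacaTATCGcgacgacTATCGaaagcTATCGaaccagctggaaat
Tcs5 and CHMP2B, chr3L:5139396-5139618: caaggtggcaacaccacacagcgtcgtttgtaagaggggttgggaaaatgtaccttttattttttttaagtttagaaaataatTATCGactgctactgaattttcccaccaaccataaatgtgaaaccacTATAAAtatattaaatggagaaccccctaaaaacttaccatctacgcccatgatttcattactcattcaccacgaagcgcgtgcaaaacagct

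The printed stretches all held CGATA at least once, and those of CG13390 with CG17294 and of Tcs5 with CHMP2B held TATAAA as well. The summit was at base 126 of 256 in the first, base 91 of 237 in the second and base 106 of 223 in the third. The next 2 stretches by the same choice, of CG3437 with CG3552 at rank 62 and of Lon with PIG-F at rank 82, held TATAAA but no CGATA. A match is a description of letters and not evidence of a bound factor.

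The strongest member peak was also the strongest of the whole list. It lay at the shared promoter of CG17260 and SerRS, the gene of seryl-tRNA synthetase, with starts 8 bp apart (2L from 3036930 to 3037888, summit at 3037409). Its signal was 19876.5 in the IDR list, 75.9 times the list's median, and it ranked first in both replicate lists, with 9572 in replicate 1 and 10331 in replicate 3.

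SMC2, a condensin subunit that compacts chromosomes in mitosis, shares its promoter with Ercc1, a nuclease subunit of nucleotide excision repair. That peak (2R from 14852346 to 14853311) had a signal of 13243 and ranked 2 in both replicates, with 6352 in replicate 1 and 6898 in replicate 3. MED17, a Mediator subunit, faces CG12321 across 365 bp (3R from 18188432 to 18189351). Its signal was 10838, with rank 4 in both replicates.

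The pair CG11504 and CG15525 (3R from 29997395 to 29998230) had a signal of 9939 and ranked 5 in replicate 1 and 6 in replicate 3. Noc1, which acts in assembly of the large ribosomal subunit in the nucleolus, faces the prefoldin gene Pfdn2 (3L from 11074097 to 11075051). Its signal was 6695, with rank 8 in replicate 1 and rank 12 in replicate 3. The summits of SMC2, MED17, CG11504 and Noc1 were 85, 78, 47 and 58 bp upstream of the nearest start, and each lay between the 2 starts. These 5 members were thus among the 12 strongest regions of either replicate.

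The step to the next members was large. Art3, an arginine methyltransferase gene, and mRpS10, which encodes a protein of the mitochondrial ribosome, shared the sixth member peak with a signal of 3714. The peaks ranked 7 to 15 among the members had signals of 2517 to 3535. In order, their pairs were Chro and Ssl1, CenG1A and mRpS23, CG13390 and CG17294, CG5611 and Mtl, Tcs5 and CHMP2B, Pal1 and Pdrg1, CG11309 and CG7632, CG3552 and CG3437, and RpS27 and Nup37. Chro encodes a chromodomain protein of interbands and the spindle, Ssl1 a TFIIH subunit, Mtl a Rac-type GTPase, CHMP2B an ESCRT-III protein and Nup37 a nucleoporin. All 15 ranked 69 or better in replicate 1 and 87 or better in replicate 3.

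**Figure D1:**
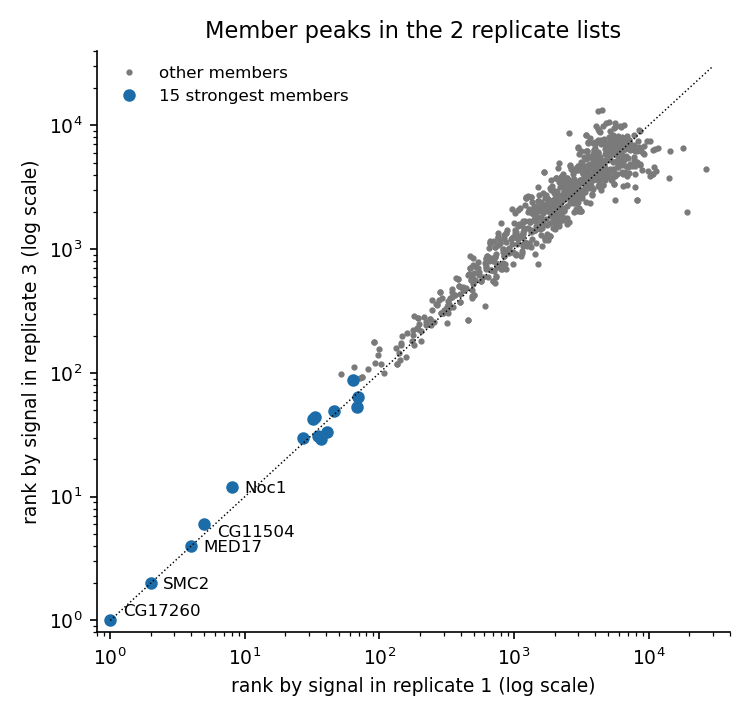
Rank by signal of each member peak in the list of replicate 1 (x axis) and of replicate 3 (y axis), both on log scales, with the 15 strongest members in blue and the line of equal ranks dotted. The 5 named peaks sit at ranks 1 to 12 in both lists, apart from the rest, and the spread around the line widens among the weak members.

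Members repeated well between the replicates, within the limit that the IDR list was chosen for this. A region overlapping the member was present in the list of replicate 1 for 870 of the 883 members and in that of replicate 3 for 867. For 781 (88.4%, interval 86.2 to 90.4) it was among the 7689 strongest of both, against 2047 of 2424 single-direction promoter peaks (84.4%, 82.9 to 85.8). The difference was 4.0 percentage points (Newcombe 95% interval 1.34 to 6.46). Over the 854 members matched in both, Spearman's rho of the signals was 0.925, as a description across peaks. Of these 854, 2 had ranks more than 4-fold apart. Among those of the 854 in the 1000 strongest peaks of the IDR list, RpL3 had the widest gap. This ribosomal protein gene, which faces CG6693, was at rank 1500 in replicate 1 and 753 in replicate 3. Members unmatched in a replicate have no such gap. P5cr with GatA, at rank 891 of the IDR list, was at rank 781 in replicate 3 and matched no region of replicate 1.

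Fewer than 1 in 2 divergent promoters was occupied. Among 13945 protein-coding genes, 3815 had a divergent partner, and they formed 1972 pairs. A member peak lay at 784 pairs (39.8%, interval 37.6 to 41.9), which took in 1567 divergent genes (41.1%). The background share, that of all protein-coding genes with any summit within 500 bp of a start, was 26.1%, divergent genes included. By that same measure, 1719 of 3815 divergent genes (45.1%) had a summit, against 1926 of 10130 other coding genes (19.0%). Some divergent genes without a member peak thus had a summit near a start. A single peak at a shared promoter counts for both genes. In the replicates taken singly, 799 pairs (40.5%) were occupied in replicate 1 and 802 (40.7%) in replicate 3, of which 695 were the same pairs. Of the 1188 pairs without a member, 334 (28.1%) held a weaker region of the pooled list, and 854 held none.

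Occupied pairs occurred on every arm. The share was 33.3% of 288 pairs on the X (interval 28.1 to 39.0) and 40.9% of 1684 autosomal pairs (38.5 to 43.2). The difference, X minus autosomes, came to -7.52 percentage points (interval -13.2 to -1.43), -10.0 in replicate 1 (-15.7 to -3.98) and -5.34 in replicate 3 (-11.2 to 0.817). The interval therefore included 0 in replicate 3. The same shares are not given here for other promoters, so the difference is not shown to be particular to divergent pairs. Shares on the large autosomal arms were 39.4% on 2L, 37.0% on 2R, 43.9% on 3L and 42.6% on 3R, and 2 of the 7 pairs on chromosome 4 were occupied.

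The summits sat mostly inside the shared stretch. Of the 883 member summits, 696 (78.8%, interval 76.0 to 81.4) lay between the 2 starts, with 79.0% in replicate 1 and 77.2% in replicate 3. The stretches between the starts of all pairs add up to 465 kb, and the 500 bp beyond each start to 1972 kb. A summit beyond a start that was nearer to another start was not always a member, so no density is drawn from these lengths. Members with the summit between the starts had a median signal of 348, and the 187 members with it outside had 298. Neither strand was strongly favoured, with 476 of 883 members (53.9%) nearest to a plus-strand start.

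The position of the summit followed the distance between the starts, taken here at the start nearest to the summit. With starts up to 100 bp apart, the median summit was 20 bp downstream of the nearest start, and with over 100 and up to 200 bp it was at -15 bp, where negative means upstream. In the 3 wider classes, in steps of 100 bp up to 500 bp, the medians were -88, -93.5 and -105 bp. A summit between the starts cannot be farther upstream than the middle of the stretch, so the narrow classes leave no room for the wider positions. The share of summits between the starts was 34.9% in the narrowest class, 63.2% in the next, and 85.9%, 90.6% and 89.7% in the wider ones.

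**Figure D2:**
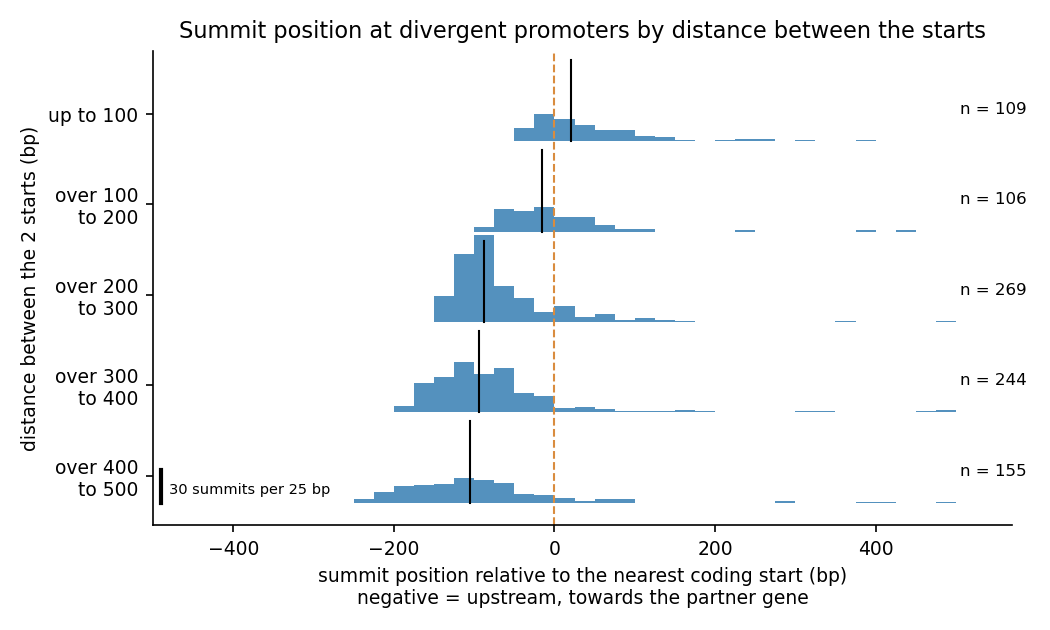
Summit position relative to the nearest coding start in bp (x axis) for member peaks in 5 classes of distance between the 2 starts, each drawn as a histogram in bins of 25 bp with its median as a black line and its number of peaks at the right. The median moves upstream to -88 bp once the starts are over 200 bp apart and stays between -88 and -105 bp in the 3 wider classes.

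In wide stretches the summits were spread between the starts. For the 360 member summits between starts over 300 bp apart, the median distance to the nearest start was 104 bp (quartiles 64.8 and 145 bp). Of these, 129 (35.8%, interval 31.1 to 40.9) lay in the middle one of 3 equal parts of the stretch. Single-direction promoter summits upstream of their start lay at a median of 186 bp from it (quartiles 96 and 291.5 bp), but they have no second start to limit that distance. The share of summits upstream of the nearest start was 78.8% of members and 79.5% of single-direction promoter peaks, a difference of -0.721 percentage points (interval -3.95 to 2.34).

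Wide pairs were occupied more often than narrow ones. With starts over 200 bp apart, 549 of 1190 pairs were occupied (46.1%, interval 43.3 to 49.0), against 235 of 782 with starts up to 200 bp apart (30.1%, 26.9 to 33.4). The difference was 16.1 percentage points (interval 11.7 to 20.3), 19.0 in replicate 1 (14.7 to 23.2) and 15.5 in replicate 3 (11.1 to 19.7). By class of 100 bp, from narrow to wide, the occupied share was 30.8%, 29.1%, 45.2%, 50% and 42.3%. The stretch searched also grows with the distance between the starts, and its part in this difference was not tested. The median distance was 267 bp in occupied pairs and 227.5 bp in pairs without a member.

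**Figure D3:**
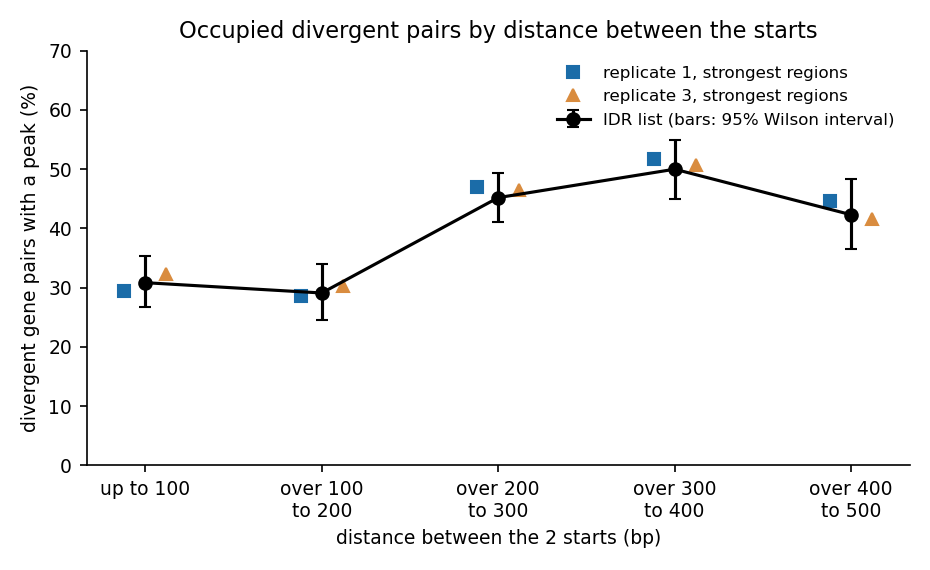
Share of divergent gene pairs with a member peak in percent (y axis) by distance between the 2 starts in bp (x axis), for the IDR list with 95% Wilson intervals and for the strongest regions of each replicate. The share is 30.8% and 29.1% in the narrow classes and 42.3% to 50% in the 3 wider ones, and both replicates lie within the intervals.

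Most occupied pairs held a single summit, 685 of 784. The other 99 pairs held 2, and none held more. The 2 summits were at least 199 bp apart, with a median of 206 bp, and 77 of the 99 pairs had starts over 200 bp apart. The strongest of the pairs with 2 summits were RpS27 with Nup37, Lon, a mitochondrial protease gene, with PIG-F, an enzyme gene of GPI-anchor synthesis, and the stress kinase gene p38a with CG6178. At RpS27 the stronger summit, 1 bp downstream of its start, had a signal of 2517 and the second, near the Nup37 start, had 286. At Lon the 2 signals were 2435 and 192, and at p38a they were 2052 and 553, so 1 summit led at each of these pairs. Both summits of each of these pairs matched the same region in each replicate, so the match does not show the second summit separately. Of the 883 members, 80 lay within 230 bp of a stronger summit, beside 576 of all 7689 peaks of the list.

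Member peaks were somewhat stronger than single-direction promoter peaks. The signal ranged from 145 to 19876.5 with a median of 339 in members, and from 144 to 12485 with a median of 282 in single-direction promoter peaks. A signal at or above the list's median of 262 was found in 553 members (62.6%) and in 1320 single-direction promoter peaks (54.5%). The difference was 8.17 percentage points (interval 4.38 to 11.9), with 10.8 in replicate 1 and 7.56 in replicate 3. Where a partner had to start within 200 bp, the difference was -3.37 percentage points. The single-direction share differed by side of the start. It was 59.1% (interval 56.9 to 61.3) in the 1923 upstream peaks, with a median signal of 311. In the 501 peaks downstream or at the start it was 36.5% (32.4 to 40.8). In members it was 64.8% (61.2 to 68.3) with the summit between the starts and 54.55% (47.4 to 61.5) outside. Among the 768 strongest peaks of the list the shares were 15.6% of members and 14.4% of single-direction promoter peaks, a difference of 1.27 points (interval -1.40 to 4.15). Members made up 5 of the 10 strongest peaks and 21 of the 100 strongest.

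The DRE was more frequent at member summits than at other promoter summits, but not more frequent at midpoints of occupied than of unoccupied pairs. The DRE, TATCGATA, was within 50 bp of 5.55% of member summits and 2.10% of single-direction promoter summits, a difference of 3.44 percentage points (interval 1.97 to 5.23), and of 1.46% of all 7689 summits. In windows of the same length at the midpoints of the divergent pairs, the DRE was in 4.59% of occupied pairs and in 7.58% of pairs without a member, a difference of -2.98 points (interval -5.05 to -0.800), and in 6.39% of all 1972 pairs. The windows lie on the summit in one comparison and on the midpoint in the other.

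In these windows the short BEAF-32 site, the M1BP word and the core of motif 5 ran the same way. CGATA, which is part of the DRE, was at 25.5% of member summits and 17.4% of single-direction ones, and at 21.3% of occupied and 31.1% of unoccupied midpoints. The M1BP word GGTCACACT was at 2.15% of member summits and 1.07% of single-direction ones, and at 1.66% of occupied and 3.45% of unoccupied midpoints. CAGCTG, the core of motif 5, was at 6.68% and 4.41% of member and single-direction summits, and at 6.89% of occupied and 8.50% of unoccupied midpoints, and the interval of this last difference included 0. ATCGATAG, which overlaps the DRE and was noticed earlier in these same peaks, was at 5.89% of member summits and 2.72% of single-direction ones.

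Elements of regulated promoters did not all run 1 way. TATAAA, the TATA box, was at 23.6% of member summits and 19.6% of single-direction ones, and at 27.3% of occupied midpoints and 20.3% of unoccupied ones. GAGAGAG, the GAGA factor's repeat, was at 0.227% of member summits (2 windows) and 1.77% of single-direction ones, a difference of -1.55 percentage points (interval -2.18 to -0.798). At midpoints it was in 0.255% of occupied and 2.10% of unoccupied pairs. The initiator, TCAGTT or TCAGTC, was at 7.36% of member summits and 9.20% of single-direction ones (difference -1.84, interval -3.80 to 0.362). At midpoints it was in 7.14% of occupied and 9.76% of unoccupied pairs (difference -2.62, interval -5.05 to -0.0694). The words of motif 7 (CATCNCTA), the downstream promoter element (the words AGACGTG and also AGTCGTG, or with a first G the words GGACGTG and also GGTCGTG), Pho (GCCATNTT) and the CACGTG E-box differed by under 1 percentage point between member and single-direction summits, with intervals that included 0. Both strands were searched for every motif.

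**Figure D4:**
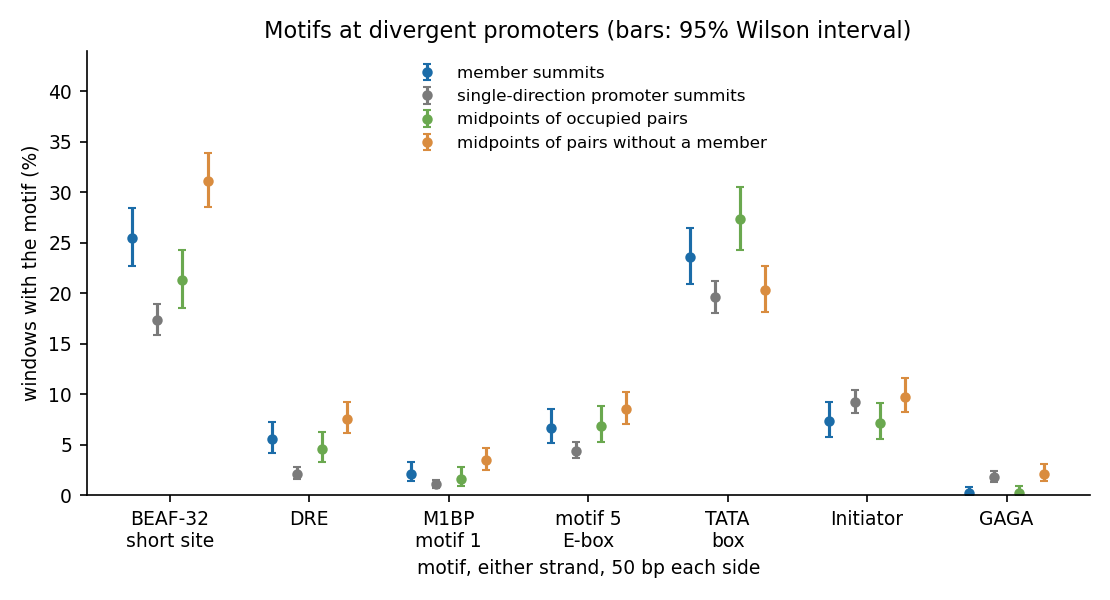
Share of windows, 50 bp each side, that hold each of 7 motifs on either strand in percent (y axis), at member summits, single-direction promoter summits, midpoints of occupied divergent pairs and midpoints of divergent pairs without a member, with 95% Wilson intervals. The DRE, the short BEAF-32 site and the M1BP word are most frequent at midpoints of pairs without a member, and the TATA box is most frequent at midpoints of occupied pairs.

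Base composition moved with these shares. The GC content was 33.6% at member summits, 37.0% at single-direction promoter summits and 33.8% at summits away from promoters, and 49.8% and 49.6% in windows 500 bp to either side of the member summits. Midpoints of occupied pairs had 31.3% GC and those of pairs without a member 35.1%. Occupied pairs were also wider, and with starts over 200 bp apart the midpoints had 26.5% GC in occupied and 29.3% in unoccupied pairs. The part of base composition and width in the motif shares was not tested.

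To hold the width more even, whole stretches between starts over 200 bp apart were also read for 7 of the motifs. Of the 229 such pairs with a DRE in the stretch, 113 (49.3%, interval 42.9 to 55.8) were occupied, against 436 of the 961 without (45.4%, 42.2 to 48.5), a difference of 3.98 percentage points (interval -3.17 to 11.1). The difference was 1.04 in replicate 1 and 3.14 in replicate 3. With the M1BP word it was 1.24 points (-10.1 to 12.8). For both words, and for motif 5 below, the difference was positive here and negative in the midpoint windows of all pairs. Pairs with an initiator word were occupied in 37.8% of 296 cases and the others in 48.9% of 894, a difference of -11.0 points (interval -17.3 to -4.52), -10.0 in replicate 1 and -13.3 in replicate 3. With TATAAA the difference was 6.16 points (0.419 to 11.8) in the IDR list, 6.71 in replicate 1 and 4.90 in replicate 3, where the interval included 0. The E-box of motif 5 gave 7.23 points (0.0209 to 14.4), with intervals that included 0 in both replicates, and GAGAGAG gave -15.7 (-30.3 to 3.72), with an interval that excluded 0 in replicate 1 (-37.9 to -6.36). Split by GC content of the stretch into 3 groups of like size, 49.6% of pairs in the poorest group and 40.6% in the richest were occupied, a difference of 9.06 points (interval 2.12 to 15.9).

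A pair with a member and a pair without one show that the DRE occurs at both. Atat, a tubulin acetyltransferase gene, and the adaptor gene Shc had a member peak at rank 111 of the IDR list, 97 in replicate 1 and 139 in replicate 3. The Wnt pathway gene pygo and rod, a kinetochore gene, had no member and no weaker pooled region. The pygo pair was taken as the unoccupied pair with a DRE whose length was nearest to that of the first. CG7903 and Sas-6, a centriole gene, are the strongest such member with the M1BP word, at rank 584. Capitals mark the DRE in the first 2 stretches and the M1BP word in the third, on either strand.
Atat and Shc, chr3L:9426759-9427009: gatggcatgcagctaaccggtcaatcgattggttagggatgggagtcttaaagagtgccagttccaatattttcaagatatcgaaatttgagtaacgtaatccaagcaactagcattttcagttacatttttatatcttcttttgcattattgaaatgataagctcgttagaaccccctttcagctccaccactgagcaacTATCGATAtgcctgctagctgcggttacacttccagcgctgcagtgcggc
pygo and rod, chr3R:31580700-31580950: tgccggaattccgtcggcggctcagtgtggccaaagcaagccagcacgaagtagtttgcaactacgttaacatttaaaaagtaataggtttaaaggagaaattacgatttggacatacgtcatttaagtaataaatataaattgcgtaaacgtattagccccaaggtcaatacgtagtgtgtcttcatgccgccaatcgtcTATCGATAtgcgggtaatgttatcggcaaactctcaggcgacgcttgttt
CG7903 and Sas-6, chr3R:29995232-29995356: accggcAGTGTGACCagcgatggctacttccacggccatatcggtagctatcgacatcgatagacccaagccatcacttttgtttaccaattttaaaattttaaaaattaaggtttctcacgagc

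In the Atat and Shc stretch the summit was at base 125 of 251, and the DRE lay near the Shc end. At the 133 members with a DRE between the starts, the median distance from the DRE to the summit was 91 bp (quartiles 45 and 149 bp).

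Of the 21 gene lists, cytosolic ribosomal protein genes held member peaks most often. Of 34 such genes with a divergent partner, 32 had a member peak (94.1%, interval 80.9 to 98.4), with 94.1% in each replicate, beside 41.1% of all divergent genes. RpS27 and RpL7 had the strongest, with signals of 2517 and 2410, and the median over the 32 genes was 976. RpS15Ab and RpS28a had none. The other genes of this list, those without a divergent partner, had a summit within 500 bp in 46 of 54 cases (85.2%), so occupancy was high at both kinds of promoter. Over all 10130 coding genes without a divergent partner, 19.0% had such a summit.

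Mitochondrial ribosomal protein genes had a member peak in 32 of 54 cases (59.3%, interval 46.0 to 71.3), with 55.6% in replicate 1 and 61.1% in replicate 3. Without a divergent partner, 6 of 21 had a summit (28.6%). The strongest were mRpS10 and mRpS23, with signals of 3714 and 3523, and the median over the 32 was 275. The 2 ribosome lists differed in which start was nearer. At peaks of a cytosolic ribosomal protein gene and a gene outside the list, the summit was nearer to the ribosomal gene in 32 of 39 cases (82.1%, interval 67.3 to 91.0), with 78.0% in replicate 1 and 82.1% in replicate 3. At peaks of mitochondrial ribosomal protein genes it was nearer to the listed gene in 11 of 33 (33.3%, 19.8 to 50.4), with 32.3% in replicate 1 and 41.7% in replicate 3. This comparison was chosen after its values were seen.

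Nucleolar genes of ribosome biogenesis were occupied in 12 of 16 cases (75%, interval 50.5 to 89.8), the same share in both replicates. Noc1 led, followed by Ns2, a nucleostemin-family GTPase gene, with a signal of 1546. Aminoacyl-tRNA synthetase genes were occupied in 11 of 21 cases (52.4%, 32.4 to 71.7), led by SerRS and IleRS (814). Translation factor genes were occupied in 11 of 22 (50%, 30.7 to 69.3), led by eIF4EHP, a cap-binding repressor gene that faces CG18428 (2432), and by eIF1 (1371), which faces RpL28. For these last 2 lists the interval held the 41.1% of all divergent genes.

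For the next 4 lists, of chromosome structure and of transcription, the interval also held 41.1%. Condensin and cohesin genes had a member in 7 of 11 cases (63.6%, interval 35.4 to 84.8), led by SMC2 and by the cohesin regulator gene pds5 (1557). Insulator and promoter factor genes had one in 6 of 8 (75%, 40.9 to 92.9). These were Chro, Cp190 (1789), Dref (1143), M1BP (1082), pzg (585) and su(Hw) (186). The genes of DREF and M1BP themselves thus lay at member promoters. The summit was nearer to the partner's start, however, that of RpL13 for Dref and of CG8202 for M1BP. Of the 6 peaks with 1 gene of this list, 1 (16.7%) was nearer to the listed gene, with 16.7% in replicate 1 and 40% in replicate 3. Ibf1 and Ibf2, which face each other, had no member peak. Mediator genes were at 9 of 19 (47.4%, 27.3 to 68.3), led by MED17 and MED30 (1019), and RNA polymerase and general transcription factor genes at 18 of 39 (46.2%, 31.6 to 61.4), led by Ssl1 and Polr3E (1361).

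Other housekeeping lists had intervals that held the level of all divergent genes, at shares from 18.2% for chaperones to 50% for Golgi and vesicle traffic. They were Golgi and vesicle traffic (19 of 38, led by Vps33B and Sec6), spliceosome (10 of 22, led by U2af50 and Sf3b6), respiratory chain (16 of 39, ND-MWFE and ND-42), GATOR and TOR (4 of 10, Wdr24 and Sec13), DNA replication (6 of 17, PolD2 and dup), RNA exosome and decay (4 of 12, Rrp6 and Csl4), proteasome (8 of 24, Rpn5 and Rpn3) and chaperones (2 of 11, Hsc70-5 and Hsc70-4).

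The lowest shares were in 3 lists. Of 11 spindle assembly checkpoint and kinetochore genes with a divergent partner, 1 had a member (9.09%, interval 1.62 to 37.7), namely Bub3, which faces the condensin gene Cap-D2 and had a signal of 351. The share was 18.2% in each replicate, which is also the share of the chaperone genes in the IDR list. At that share, 2 of 11, the interval was 5.14 to 47.7 and held 41.1%. Mad1, Mps1, Zw10, rod and 6 others had none. Of 16 chemoreceptor genes, 1 had a member (6.25%, 1.11 to 28.3), Ir60e, with a signal of 176. Cuticle protein genes had 0 of 3, with an interval up to 56.1% that held 41.1%, and none of the 31 segmentation and Hox genes had a divergent partner.

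Both genes fell in the same one of these lists at 7 pairs, and none of the 7 had a member peak. Over all 1972 divergent pairs the share with a member was 39.8%. The 7 were Taf10b with Taf10, Cog3 with Sec5, Ibf2 with Ibf1, the small heat shock genes Hsp67Bc with Hsp22, the gustatory receptor genes Gr58b with Gr58a and Gr59e with Gr59f, and the cuticle genes Cpr65Ax2 with Lcp65Aa. Of these, 2 were in the chemoreceptor list and 1 in the cuticle list, whose shares were 6.25% and 0%. No difference from the share over all pairs is drawn from 7 pairs. Pairs of related genes outside the lists were not counted here.

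**Figure D5:**
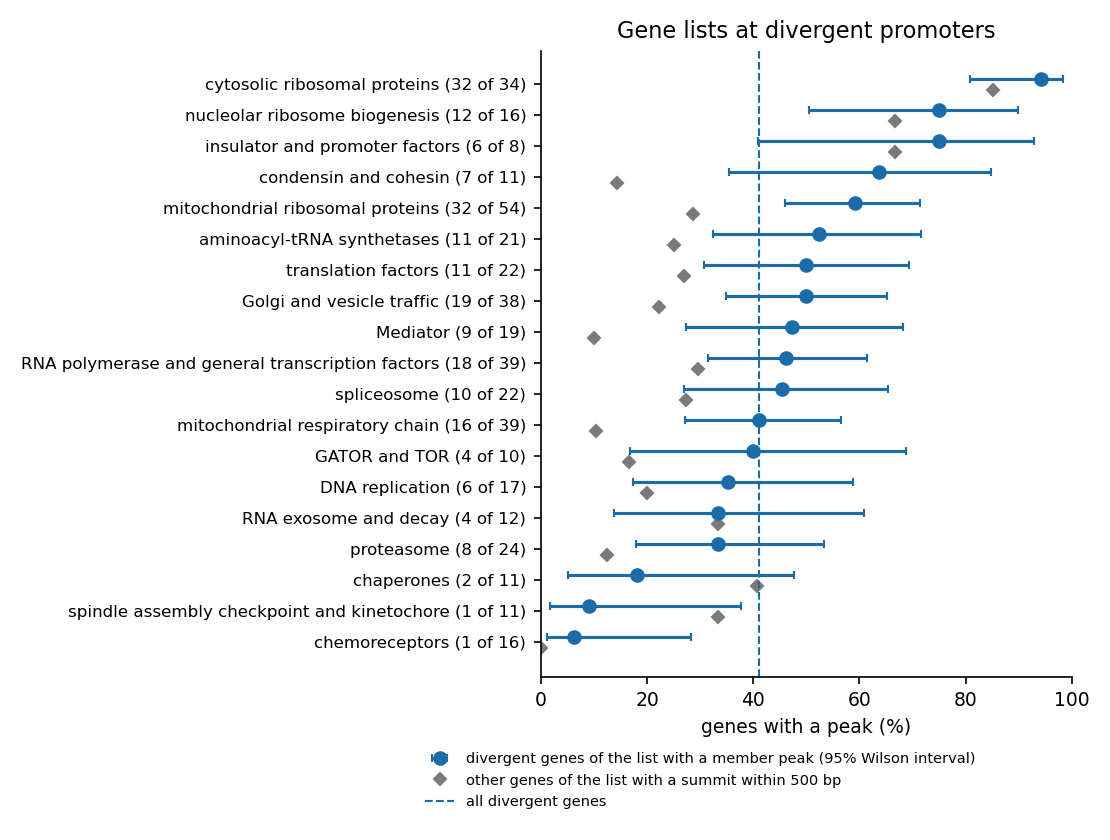
Share of the divergent genes of each list that had a member peak, with 95% Wilson intervals (circles), beside the share of the other genes of that list with a summit within 500 bp of a start (diamonds), in percent (x axis), for lists with at least 8 divergent genes. The dashed line is the 41.1% of all divergent genes. Cytosolic ribosomal protein genes are at 94.1% and chemoreceptor genes at 6.25%.

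The peaks next to the 500 bp limits of the definition were as follows. The 5 members with the summit in the outermost 50 bp had a median signal of 387, and the 10 peaks in the 50 bp beyond, with a partner, had 583. The 73 members whose starts were in the outermost 50 bp of the allowed distance had 284, and the 64 peaks in the 50 bp beyond had 312.5.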

How the data were processed

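Peak lists of anti-GFP ChIP-seq from 2 biological replicates of 1 group were used. The authors deposited, on dm6, a list of 30000 regions for each replicate, a pooled list and an IDR-thresholded list. Each region carries a signal value, deposited on a scale not given in the sources used here, a summit, and a deposited −log10 q-value that was not used. Aligner, caller and IDR cutoff are likewise not given in the sources used here, and no control library was analysed. Fragments of 200 to 800 bp are stated per the labels.

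The summit is the region's start plus the deposited offset. Transcription starts came from Ensembl release 115 (BDGP6.54), whose arm lengths match dm6, and sequence from the RefSeq copy of the assembly. A summit equally near to several starts was counted as divergent if one of them was, which concerned 27 members. A pair's distance is the smallest between its starts, and the occupied shares by distance use it. Summit positions by distance use the distance from the start assigned to the summit to its nearest partner start, which can be larger. The class up to 100 bp therefore holds 132 occupied pairs but 109 member peaks. A member was matched to the strongest region of a replicate list that overlapped it by at least 1 bp, so 2 near summits can share a match. For a replicate taken alone, its own 7689 strongest regions stood in for the IDR list. Shares have Wilson 95% intervals and differences Newcombe 95% intervals.

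The members, lists and motifs were chosen with earlier results of these data known, and some lists were trimmed after the annotation was read. Named are the 15 strongest members, up to 2 genes per list with the strongest member, the 3 strongest pairs among those with the most summits, and for sequence strong members outside 1 arm with starts 20 to 300 bp apart. Other genes named were chosen after their values were seen. Alternatives left out each replicate or changed the summit window, the partner distance, the starts, the list length, near summits, the motif window and the reference point of the peak. The code was tested on simulated data. The scripts ran in Python 3.11.15 (numpy 2.4.6, pandas 2.3.3), with scipy 1.17.1 for correlation and matplotlib 3.10.9 for figures.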

Additional observations from a re-analysis of the deposited data

How the results depend on the processing

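Several values depended on how near a partner had to start. With a partner within 200 bp instead of 500 bp, members were 2.80% of the list, 27.7% of divergent genes had a member, 48.8% of summits lay between the starts and 9.77% of member windows held the DRE. The difference in peaks at or above the median signal then turned to -3.37 percentage points, and 64.3% of divergent cytosolic ribosomal protein genes had a member. A peak then counted only if the start nearest to its summit had a partner within 200 bp. The shares of genes with a member can therefore fall without any loss of peaks. The difference by distance between starts has no value at this setting. With a partner within 1000 bp, members were 15.85% of the list, the signal difference was 5.40 points, the ribosomal share 92.45% and the difference between wide and narrow pairs 11.7 points. With 1 start per gene, members were 10.6%, summits between the starts 73.2% and the ribosomal share 93.9%. With summits within 200 bp, the values were 11.0% of the list, 39.9% of divergent genes, 80.5% between the starts, a signal difference of 12 points and a ribosomal share of 91.2%. In the stronger part of the list, from the median signal up, they were 14.4%, 27.2%, 81.6%, 0.271 points and 91.2%, and the DRE was in 4.70% of windows. With 100 bp each side, the DRE was in 11.1%. Leaving out summits near a stronger one gave 11.3% of the list.

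Leaving out either replicate gave 11.7% to 11.8% of the list, 41.9% to 42.0% of divergent genes, 77.25% to 79.0% of summits between the starts, a signal difference of 7.56 to 10.8 points and a difference between wide and narrow pairs of 15.5 to 19.0 points. The DRE share was 5.20% to 5.77% and the ribosomal share 94.1% in both. Of 57 comparisons of a setting with the value reported, 24 moved by no more than the spread between the replicates, 32 moved by more and 1 turned its direction. That spread is the SD of 2 values. It was 0 for the ribosomal share, where any change counts as a move, and 0.0276 percentage points for the share of the list. No paired analysis was possible because there is only 1 group. The read depth is unknown, so how many weaker divergent promoters would pass at another depth cannot be told.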

Other observations

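AAGTTGGC recurred at member peaks of ribosomal protein genes. The word was picked after its values were seen, so it is a description of these peaks. On either strand it was within 100 bp of 7 of the 39 member summits of pairs with a cytosolic ribosomal protein gene (17.9%, Wilson 95% interval 8.98 to 32.7), against 13 of the other 844 member summits (1.54%, 0.902 to 2.62). The 7 were at RpS27, RpL7, RpL28, RpLP0, RpS21, RpS19a and sta, which encodes a protein of the small subunit. At single-direction promoters it was at 3 of 50 ribosomal protein summits (6%, 2.06 to 16.2) and 24 of the other 2374 (1.01%, 0.680 to 1.5).

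Some member pairs outside the lists join genes of 1 complex or of well-studied proteins. The ferritin genes Fer2LCH and Fer1HCH, whose proteins form the iron-storing shell together, shared a member peak at rank 168, with rank 148 in replicate 1 and 197 in replicate 3. Its summit was 259 bp downstream of the nearest start and so outside the shared stretch. The chromatin remodeller gene brm and the Golgi GTPase gene Arl1 shared one at rank 158, with rank 144 in replicate 1 and 168 in replicate 3. These pairs were chosen after their values were seen.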
